A study of Danio rerio with 10 samples.

Results

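The genes olig1 (ENSDARG00000040948) and olig2 (ENSDARG00000040946) encode oligodendroglial lineage factors of the zebrafish. They were chosen by identifier and are 2 of the 31388 features of the count table, and both passed the filter on low counts that left 12292 features for testing. RNA was sequenced from FACsorted cells of the adult zebrafish spinal cord. GFP-positive cells of the transgenic line Tg(olig2:eGFP) stand for oligodendrocyte progenitor cells (OPCs) and those of Tg(mbp:eGFP) for mature oligodendrocytes (OLs), with 5 libraries of each. No treatment or injury is given for these fish, and their age is given only as adult. The study's methods call the libraries biological replicates, the number of fish behind each is not given, and cords of several fish could be dissociated together.

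In the first line GFP is driven by regulatory sequence of olig2 itself, so the OPCs were selected with a reporter of one of the genes described here, and the level of olig2 between the populations is not independent of that selection. The sources used here do not give which part of the olig2 locus the reporter carries. A fraction of the ventral radial glia is GFP-positive in this line too. Each population came from its own line and its own cell strainer, which cannot be told apart from the cell type. OPC libraries held 11072526 to 11960408 counts and OL libraries 13937725 to 20225093, so every OL library was deeper. Counts were divided by DESeq2's size factors, which ranged from 0.892 to 1.39, and are called normalized counts below. In bulk libraries, fewer cells that carry a transcript and less of it per cell cannot be told apart.

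Olig proteins are transcription factors of the basic helix-loop-helix (bHLH) class, which bind short DNA motifs called E-boxes as dimers, often with broadly expressed E proteins. Olig2 marks the progenitors of the ventral neural tube that give rise first to motor neurons and later to OPCs, and it stays on through the oligodendroglial lineage. Olig1 is best known from the mouse, where it takes part in the maturation of OLs and in the repair of myelin. Id proteins lack the basic region and hold E proteins in dimers that do not bind DNA.

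Both genes lie on chromosome 9 of GRCz10 on the minus strand. The olig1 feature spans 32917907 to 32919741 and has 2 exon blocks of 1275 and 202 bp after overlapping exons are merged. The olig2 feature spans 32940682 to 32942789, with exon blocks of 1590 and 94 bp. Their ends are 20940 bp apart, and 0 other features of the table overlap either of them. The exon lengths used to express levels per kb were 1477 bp for olig1 and 1684 bp for olig2.

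To compare the populations, olig1 was read first in each library. It had 697 normalized counts in OPC1, 1136 in OPC2, 1303 in OPC3, 1678 in OPC4 and 1386 in OPC5. In OLs the values were 28.0 in OL1, 62.4 in OL2, 8.94 in OL3, 8.91 in OL4 and 12.2 in OL5. The populations did not overlap, and the lowest OPC library was 11.2 times the highest OL library. The mean over 5 libraries was 1240 ± 361 (SD) normalized counts for OPCs and 24.1 ± 22.8 for OLs. This was a log2 fold change of 5.65 ± 0.54 (SE), or 50.3-fold higher in OPCs (23.8 to 106 within 2 SE), with an adjusted p of 2.16e-05 in edgeR's quasi-likelihood test.

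The size of this fold depended on OL2 more than on any other library. OL2 held 73 of the raw olig1 counts of the OLs, with 39 in OL1, 8 in OL3, 9 in OL4 and 13 in OL5. Without OL2 the log2 fold change of olig1 was 6.36. With an exact Poisson interval, which covers counting error only, the 8 counts of OL3 correspond to 3.86 to 17.6 normalized counts and the 73 of OL2 to 48.9 to 78.5. The counts of OL3, OL4 and OL5 cannot be ordered at this depth, and the interval of OL1, 19.9 to 38.3, overlapped that of OL5, 6.50 to 20.9. OL2 lay above every other OL library beyond counting error.

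The neighbouring gene olig2 was abundant in both populations. It had 13676 normalized counts in OPC1, 16026 in OPC2, 15516 in OPC3, 16193 in OPC4 and 24255 in OPC5. In OLs it had 5738 normalized counts in OL1, 4848 in OL2, 2439 in OL3, 2429 in OL4 and 3194 in OL5. Again the populations did not overlap, but the margin was smaller, with the lowest OPC library at 2.38 times the highest OL library. The mean over 5 libraries was 17133 ± 4105 (SD) for OPCs and 3730 ± 1494 for OLs, a log2 fold change of 2.2 ± 0.27 (SE) or 4.59-fold, and 3.18 to 6.63 within 2 SE (adjusted p = 0.000107, edgeR's quasi-likelihood test).

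**Figure D1:**
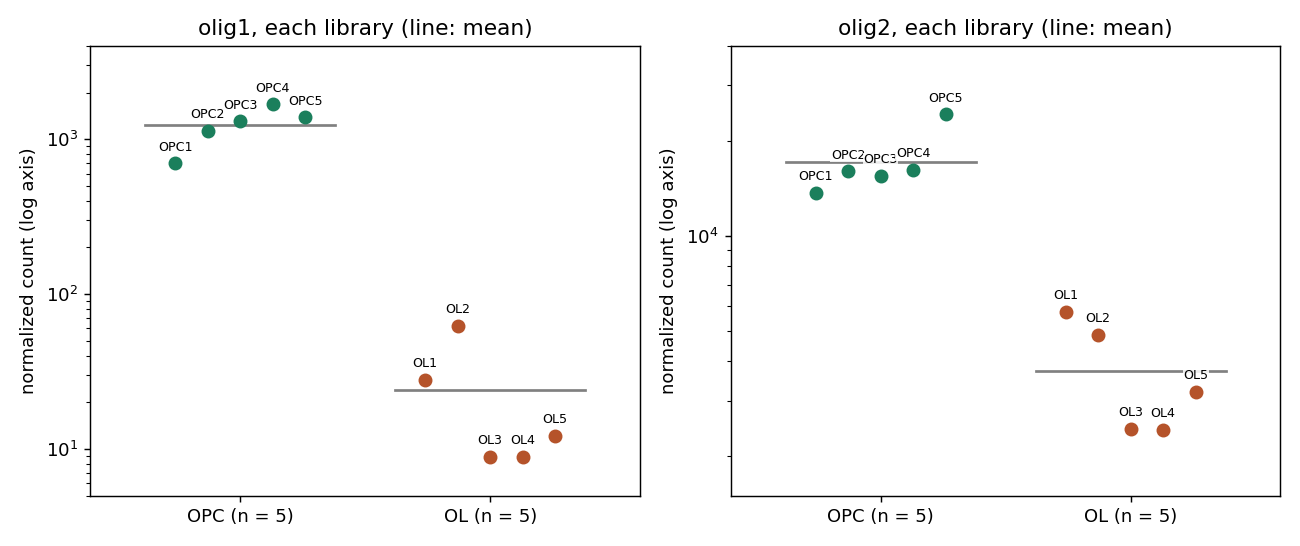
Normalized counts (log axis) of olig1 and olig2 in each of the 5 OPC and 5 OL libraries, with the mean of each population as a line. The populations do not overlap for either gene, OL1 and OL2 are the highest OL libraries for both genes, and OPC5 stands above the other OPC libraries for olig2.

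An exact permutation test on log2(normalized count + 1) gave p = 0.00794 for each gene (two-sided, 5 libraries against 5), the smallest that this number of libraries allows. Of all tested features, 11.9% differed between the populations by edgeR's adjusted p, with 8.97% higher in OPCs, as both genes were, and 2.97% lower. Populations without overlap, as for both genes, were found for 8.85% with OPCs on top and for 3.77% with OLs on top. At least 4-fold higher levels in OPCs with such a p were found for 7.01%, and both genes belong to these. The fold of olig1 was exceeded by 349 of the 12292 tested features and that of olig2 by 956. By p-value, 79 tested features came before olig1 and 211 before olig2.

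Levels of the 2 genes were set side by side per kb of exon. The mean level was 839 ± 245 normalized counts per kb for olig1 and 10174 ± 2437 for olig2 in OPCs (SD, n = 5). In OLs it was 16.3 ± 15.5 for olig1 and 2215 ± 887 for olig2 (SD, n = 5). The olig2 level per kb ranked between 27 and 60 among the 31388 features of an OPC library and between 193 and 552 in an OL library. For olig1 the ranks were 632 to 1495 in OPCs and 6785 to 11198 in OLs. In OLs olig2 was thus still among the abundant transcripts, whereas olig1 ranked far below it.

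Whether the OPC to OL difference was larger for olig1 than for olig2 was tested on the ratio within each library, which cancels the scaling between libraries except for the pseudocount. Per kb, olig2 exceeded olig1 by a factor of 17.2 in OPC1, 12.4 in OPC2, 10.4 in OPC3, 8.47 in OPC4 and 15.3 in OPC5. In OLs the factor was 180 in OL1, 68.1 in OL2, 239 in OL3, 239 in OL4 and 230 in OL5. The lowest factor in OLs was well above the highest in OPCs. The log2 ratio of olig1 to olig2 was -3.63 ± 0.41 (SD, n = 5) for OPCs and -7.35 ± 0.73 for OLs, a difference of 3.72 (two-sided p = 0.00794 in an exact permutation test, again the smallest possible). With a pseudocount of 10 in place of 1 the difference was 3.10.

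**Figure D2:**
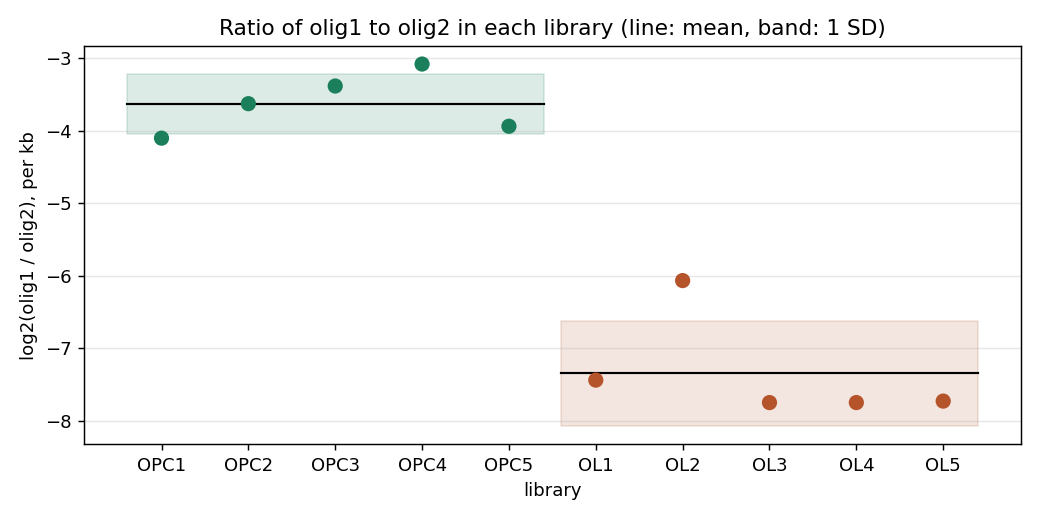
Log2 ratio of the olig1 level to the olig2 level, both per kb of exon, in each library, with the mean (line) and 1 SD (band) of each population. OPC libraries lie around -3.63 and OL libraries around -7.35, with OL2 at -6.07 above the other OL libraries.

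The spread between replicates differed by population. In OPCs the coefficient of variation was 29.1% for olig1 and 24.0% for olig2, close to the median of the features within 2-fold of the same mean (23.6% over 1864 features and 24.6% over 103 features). In OLs it was 94.8% for olig1, where the median of 2426 such features was 48.0% and 190 had a larger value. For olig2 it was 40.1% in OLs, where the median of 645 such features was 13.2% and 34 had a larger value. Both genes thus varied more between OL libraries than most features of like abundance, and both were highest in OL1 and OL2.

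OL1 and OL2 were also the deepest libraries, and 230 other features that passed the test, were higher in OPCs by 4-fold or more and averaged 10 or more normalized counts over the OLs were read in them. Relative to the mean of the other 4 OL libraries on log2(normalized count + 1), olig1 was higher by 0.77 and olig2 by 0.89 in OL1, while the median of the 230 features was -0.30. In OL2 olig1 was higher by 2.19 and olig2 by 0.59, and the median of the 230 features was 0.19. GPR17, a receptor of premyelinating OPCs in the mouse, had 0 counts in both of these libraries. It had at most 1 count in any OL library, so it cannot tell them apart from the others. With every library thinned to the smallest total, the log2 fold change was 5.94 for olig1 and 2.21 for olig2. This compares the populations only, so whether OL1 and OL2 stayed highest after thinning was not tested.

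Among OPCs, OPC1 was the lowest library for both genes and OPC5 the highest for olig2. In OPC1 olig1 was 0.97 and olig2 0.37 below the mean of the other 4 libraries on the log2 scale, and the median of the 230 features was -1.0, with 12.2% of them above that mean. In OPC5 olig2 was higher by 0.66 and olig1 by 0.27, and the median of the 230 features was 0.03. Leaving out OPC1 gave a log2 fold change of 5.80 for olig1 and 2.27 for olig2, and leaving out OPC5 gave 5.61 and 2.04.

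**Figure D3:**
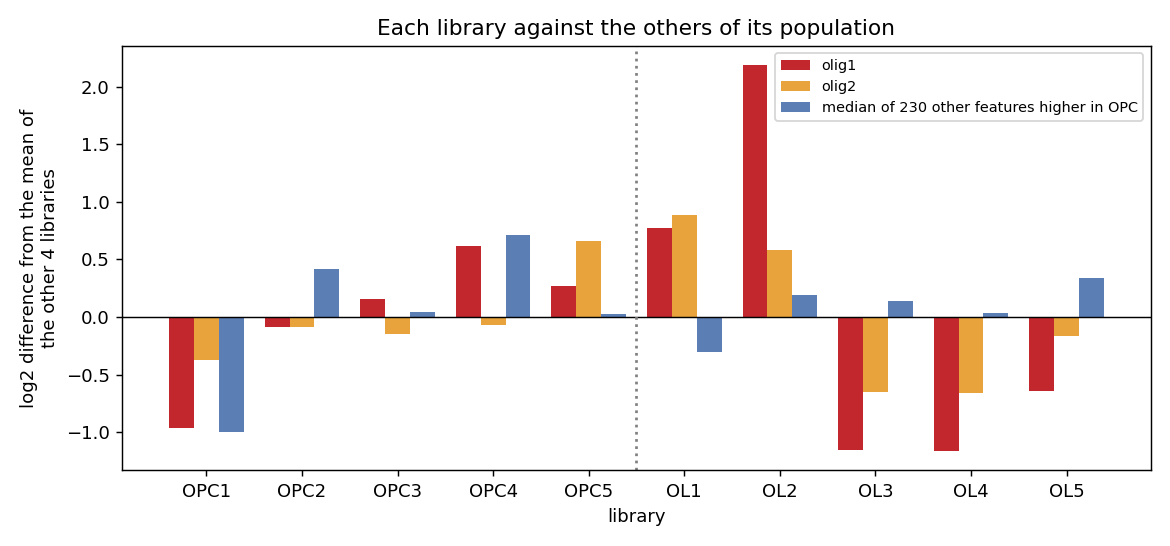
Difference of each library from the mean of the other 4 libraries of its population, on log2(normalized count + 1), for olig1, olig2 and the median of 230 other features at least 4-fold higher in OPCs. In OPC1 all 3 lie below 0, whereas in OL1 olig1 and olig2 lie above 0 and the median of the 230 features below it.

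Other factors of the lineage did not share 1 direction in OPC5, where 5 of the 14 tested were at their highest among the OPC libraries and 3 at their lowest. SOX10, needed for OL differentiation, had 4605 normalized counts in OPC5 and 2322 to 2853 in the other OPC libraries. The level of zeb2a, whose mouse counterpart promotes OL maturation, was 7474 in OPC5 and 2450 to 3834 in the others. That of MYRF was 3003 in OPC5 and 878 to 1497 in the others. NKX6-2, a homeodomain factor of myelinating glia, was lowest there, with 561 against 665 to 854. GPR17 was also highest in OPC5, with 898 normalized counts against 216 to 551. Of the 14 tested markers of radial glia, 7 were at their lowest among the OPC libraries in OPC5, 1 was at its highest and 6 lay between. Such ranks were not counted over all tested features, so for neither list do they show a pattern particular to it. FABP7 (ENSDARG00000007697) had 7232 in OPC5 and 12234 to 21490 in the others. The Notch target her4.2 had 39.1 in OPC5 and 243 to 696 in the others. The glutamate transporter gene SLC1A2 (ENSDARG00000102453) was highest there, with 2422 against 723 to 1502, and GFAP lay within the others. The part of such cells in the olig2 level of OPC5 was not tested.

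Other transcription factors of the oligodendroglial lineage were read from a list of 19 symbols, of which 18 were matched and 14 features tested. Of these 14, 7 were higher in OPCs, 1 was lower and 6 did not pass the test. Among all tested features 8.97% were higher and 2.97% lower. With at least 10 counts in every library, 2 members of the list were called higher in OPCs, and the others called higher above were left out untested. Under that filter 269 of all 9204 tested features were higher in OPCs. In the main test the median log2 fold change of the list was 1.24, where that of all tested features was 0.05. This median depends on the filter, since NKX6-1, with 0 counts in every OL library, passed it through its OPC counts alone. Many paralogs carry one human-style symbol in the gene table and are given here with that symbol, so a and b copies are not separated by name. The 4 members with the highest level per kb were SOX10, zeb2a, NKX6-2 and MYRF. The other members given below were named after their values were seen.

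SOX10 did not pass the test, with 3023 ± 905 normalized counts (SD, n = 5) for OPCs and 3324 ± 862 for OLs (log2 fold change -0.14 ± 0.22, adjusted p = 0.781, edgeR). MYRF, which drives myelin genes, had 1486 ± 880 in OPCs and 1491 ± 344 in OLs (adjusted p = 0.997, edgeR), and zeb2a had 4036 ± 2029 and 3416 ± 941 (adjusted p = 0.697, edgeR). For these 3 abundant factors the populations overlapped, unlike for olig1 and olig2. NKX6-2 was the only member lower in OPCs, with a log2 fold change of -0.64 ± 0.17 (adjusted p = 0.0237, edgeR). Its call was lost when OPC1 (adjusted p = 0.0506, edgeR) or OL4 (adjusted p = 0.0555) was left out and with library size alone (adjusted p = 0.154).

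The 6 of the 7 factors higher in OPCs that had counts in OLs all had smaller fold changes than olig1 in the main test. SOX6 and SOX5, which hold mouse OPCs in the precursor state, had log2 fold changes of 4.65 ± 0.63 and 2.79 ± 0.40. Without OL5 that of SOX6 was 5.63 and that of olig1 5.48, so SOX6 then lay above olig1. The fold changes of these factors were not tested against that of olig1. The proneural bHLH gene ascl1a had 4.0 ± 0.68 and a SOX8 copy (ENSDARG00000037782) 3.82 ± 0.76. TCF7L2, a Wnt effector, had 2.02 ± 0.46 and NKX2-2 (ENSDARG00000053298) 1.78 ± 0.34. All 6 had an adjusted p of at most 0.0105 in edgeR's quasi-likelihood test. The other SOX8 copy (ENSDARG00000105301) did not pass it, with 57.8 ± 49.1 normalized counts (SD, n = 5) for OPCs and 46.5 ± 13.3 for OLs (adjusted p = 0.806, edgeR). NKX6-1, a patterning factor of the ventral neural tube, had 41.5 to 98.5 normalized counts in OPC libraries whereas all 5 OL libraries had 0 counts. With each OL library set to 3 counts, its level was at least 24.5-fold higher in OPCs.

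**Figure D4:**
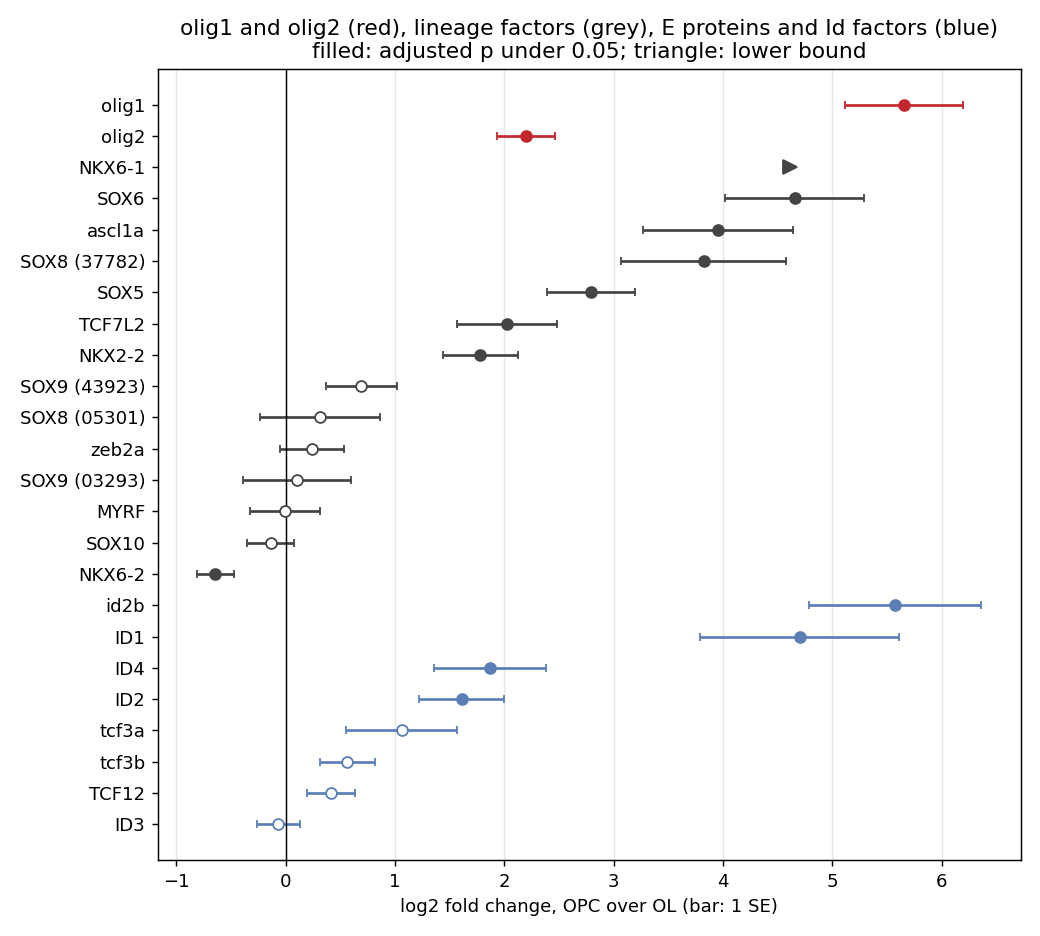
Log2 fold change of OPC over OL with 1 SE for olig1 and olig2 (red), the tested lineage factors (grey) and the tested E proteins and Id factors (blue). Filled points had an adjusted p under 0.05, digits in brackets are the end of the identifier, and the triangle of NKX6-1 is a lower bound of 4.61. The value of olig1, 5.65, lies with the upper members, and SOX10, MYRF and zeb2a lie near 0.

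Partners and antagonists of bHLH factors formed another list, of 9 symbols, with 8 features tested. Of these, 4 were higher in OPCs, 0 were lower and 4 did not pass the test, and the median log2 fold change was 1.34. This median too depends on the filter, which ID1, with at most 9 counts in an OL library, passed through its OPC counts. Among all tested features 8.97% were higher and 2.97% lower. With at least 10 counts in every library, 2 members were called higher in OPCs, and id2b and ID1 were left out untested. Under that filter 269 of all 9204 tested features were higher in OPCs. All 4 that rose in the main test were Id factors. The gene id2b rose by 5.57 ± 0.79 on the log2 scale (adjusted p = 0.000338), ID1 by 4.70 ± 0.91 (adjusted p = 0.00358) and ID2 by 1.61 ± 0.39 (adjusted p = 0.0152). ID4 rose by 1.87 ± 0.51 (adjusted p = 0.0310, all edgeR), a call that was lost under the replicate block (adjusted p = 0.0509) and in 7 of the 10 fits that left out a library. Without OL5 the value of ID1 was 5.35. The populations overlapped for ID2 and ID4 but not for id2b and ID1.

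The remaining Id factor and the E proteins did not pass the test. ID3 was abundant in both populations, with 2451 ± 583 normalized counts (SD, n = 5) for OPCs and 2568 ± 479 for OLs (adjusted p = 0.889, edgeR). The E protein genes tcf3b (1351 ± 261 in OPCs and 914 ± 299 in OLs) and TCF12 (1078 ± 379 and 809 ± 120) had adjusted p of 0.190 and 0.278 in edgeR's test. Scaled by library size alone, tcf3b did (adjusted p = 0.0306).

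Close relatives of the 2 genes were hardly counted. Of 7 Olig family and related bHLH genes, 0 passed the filter. OLIG3 had 0 counts in all 10 libraries, and olig4 had 1 count in OL3 and 0 in the others. The highest was NEUROD1, with 0 to 44 counts in OPC libraries and 0 in every OL library. The sources used here do not name how reads that map to more than 1 gene were counted, so reads shared between related genes were not tested.

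Hedgehog signalling switches on olig2 in the ventral neural tube, and most of its genes were low in these cells. Of 14 features of the pathway, 4 passed the filter, 1 was higher in OPCs and 0 were lower. The median log2 fold change was 0.09. With so few tested, this count says little beside the 8.97% of all tested features that were higher. Without the filter 5 members were higher in OPCs, beside 1964 of all 25313 features tested in that setting. With at least 10 counts in every library 0 were, because that filter left out the member that differed in the main test. The member that differed was HHIP, which binds Hedgehog ligands (log2 fold change 4.58 ± 1.09, adjusted p = 0.0139, edgeR), and its populations overlapped. Without OL5 its log2 fold change was 6.18. The ligand gene SHH was matched to 2 features, with 2 counts in OL3 for one and 0 in every library for the other. SUFU, an inhibitor inside the pathway, had 909 ± 150 normalized counts (SD, n = 5) for OPCs and 1010 ± 155 for OLs (adjusted p = 0.649, edgeR).

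The labels were read against marker genes beside these results. In the list of OPC markers, 4 of 7 features were tested, 1 was higher in OPCs and 0 were lower. Few were tested, so this count says little beside the 8.97% and 2.97% of all tested features. The member that was higher was GPR17, with 216 to 898 normalized counts in OPC libraries and at most 1 count in an OL library. The 3 others tested did not pass. PTPRZ1 (ENSDARG00000020871) had 7351 ± 3428 normalized counts (SD, n = 5) for OPCs and 9517 ± 2459 for OLs (adjusted p = 0.495, edgeR). The values were 1155 ± 268 and 950 ± 209 for vcanb (adjusted p = 0.462, edgeR). The other PTPRZ1 copy (ENSDARG00000051814) had 35.5 ± 44.9 and 16.8 ± 25.7 (adjusted p = 0.620, edgeR). PDGFRA, a defining receptor of mammalian OPCs, had 0 to 34 counts in OPC libraries and CSPG4 1 to 12, and both missed the filter. In the list of OL and myelin markers, 4 of 11 tested features were higher in OLs (mbpa, plp1b and cldnk among them). The OLs were selected with an mbp reporter, so the level of mbpa may not be independent of that selection. The list had 1 feature higher in OPCs (cnp) and a median log2 fold change of -0.35. Among all tested features 2.97% were higher in OLs and 8.97% in OPCs. The call of cnp (adjusted p = 0.0310, edgeR) was lost under the replicate block (adjusted p = 0.0603), without a filter (adjusted p = 0.0558), with at least 10 counts in every library (adjusted p = 0.0542) and in 6 of the 10 fits that left out a library. With library size alone cldnk did not pass the test (adjusted p = 0.0905, edgeR).

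Myelin transcripts were abundant in OPC libraries too. The mean level of mbpa in OPCs was 56.8% of that in OLs, with single OPC libraries from 46.0% to 61.8%. For plp1b it was 56.9% and for cldnk 64.3%. The summed level of the 11 myelin features ranged from 679332 to 878592 normalized counts per kb in OPCs and from 1266697 to 1430531 in OLs. The part of myelin transcripts in the levels of olig1 and olig2 in OPC libraries was not tested.

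Some markers of other cell types differed between the populations too, whereas others did not. In the list of radial glia markers, 7 of 14 tested features were higher in OPCs and 1 (SLC1A3) was lower. The median log2 fold change was 3.11. Over all tested features, 8.97% were higher and 2.97% lower. Some members passed the filter through their OPC counts alone, such as her4.2, with 1 count each in OL1 and OL2 and 0 in the other OLs. The count and median thus depend on the filter, and with at least 10 counts in every library 1 member was called higher in OPCs. FABP7 (ENSDARG00000007697) had 7232 to 21490 normalized counts in OPC libraries and 188 to 737 in OL libraries, whereas GFAP, the defining marker, had 24.5 to 205 and 14.5 to 49.8 and did not pass the test (adjusted p = 0.111, edgeR). The summed level of this list was 58582 to 88172 per kb in OPCs and 48990 to 70176 in OLs, most of it from GLUL.

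Of neuron markers, 4 of 7 tested features were higher in OPCs, 0 were lower and the median was 3.44. The shares over all tested features were 8.97% and 2.97%. Here too the filter shapes the count, since a STMN2 copy (ENSDARG00000033234) had 0 counts in every OL library. With at least 10 counts in every library, 0 neuron markers were called higher in OPCs, because that filter left out the 4 called here. The most abundant members per kb, ELAVL3 and ELAVL4, did not pass the main test. ELAVL3 had 4928 ± 1075 normalized counts (SD, n = 5) for OPCs and 5639 ± 943 for OLs (adjusted p = 0.566, edgeR). ELAVL4 had 1459 ± 164 and 1646 ± 238 (adjusted p = 0.534, edgeR). The summed level of the list was 2038 to 2736 per kb in OPCs and 1701 to 2220 in OLs. Motor neurons are the other product of olig2-positive progenitors, but 0 of 10 features of their list passed the filter and the summed level of the list was at most 6.78 per kb in any library. Of microglia and leukocyte markers, 3 were tested and 0 passed edgeR's adjusted p, with 1 at an unadjusted p under 0.05, 1 by DESeq2 and 0 by limma voom. This was apoeb, with 3692 ± 1885 normalized counts (SD, n = 5) for OPCs and 9267 ± 4850 for OLs (adjusted p = 0.0504, edgeR), which passed after thinning (adjusted p = 0.0499), without a filter (adjusted p = 0.0201) and in 3 of the 10 fits that left out a library. The list had a summed level of 1022 to 3285 per kb in OPCs and 1833 to 6990 in OLs. Endothelial and erythrocyte markers had 0 tested features, and their summed levels were at most 17.0 and 21.8 per kb. The part of radial glia and neurons in the olig1 and olig2 levels was not tested.

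Finally, the chromosomal surroundings of the pair were read, to see whether other features near it followed the same pattern. Within 250 kb on either side or between the genes lay 20 other features, of which 9 were tested, 1 was higher in OPCs and 0 were lower by edgeR. This share, 11.1%, was near the 8.97% of all tested features, so the count says nothing particular to these surroundings. DESeq2 called 1 of them higher and 0 lower, and limma voom 2 higher and 0 lower. At an unadjusted p under 0.05 in edgeR, 2 were higher and 2 lower. The feature si:ch211-165b19.11 (ENSDARG00000093189), which lies between the pair on the same strand, at 32934342 to 32937048, had 19.2 ± 15.1 normalized counts (SD, n = 5) for OPCs and 38.2 ± 8.27 for OLs (adjusted p = 0.296, edgeR). Its populations overlapped, unlike those of the genes on either side of it.

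The neighbour that rose by edgeR's adjusted p was ERCC1 (ENSDARG00000031680, chromosome 9, 32863930 to 32873262, minus strand), whose product is a subunit of a DNA repair nuclease. It lies 44645 bp from olig1. Its raw counts were 855, 828, 537, 443 and 1130 in OPC1 to OPC5 and 211, 219, 217, 165 and 234 in OL1 to OL5. The mean was 779 ± 232 normalized counts (SD, n = 5) for OPCs and 193 ± 38.1 for OLs, with no overlap and a log2 fold change of 2.02 ± 0.24 (adjusted p = 9.56e-05, edgeR). It remained past the threshold in each fit that left out a library (highest adjusted p = 0.000540).

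The other near neighbours did not pass the test. RABL3, 76234 bp away on the same side as ERCC1, had a log2 fold change of -0.77 ± 0.28 (adjusted p = 0.0973, edgeR). On the side of olig2, GATD3 at 44281 bp had -0.65 ± 0.29 (adjusted p = 0.184) and mxe, of the interferon-induced Mx family, at 69270 bp had -0.91 ± 1.42 (adjusted p = 0.775).

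**Figure D5:**
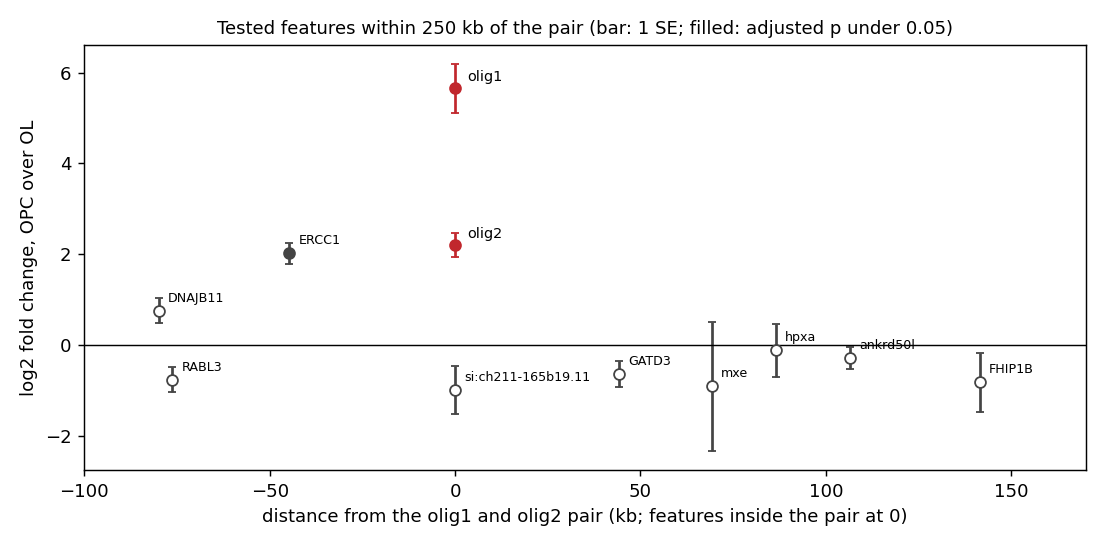
Log2 fold change of OPC over OL with 1 SE for the tested features within 250 kb, by distance from the olig1 and olig2 pair, with features inside the pair at 0 and lower coordinates to the left. ERCC1 at 2.02 is the only other filled point, and the feature between olig1 and olig2 lies at -1.0.

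Features whose profile over the 10 libraries was most like each gene were found by the root mean square difference of log2(normalized count + 1) after each feature was centred on its own mean. For olig1 these were GRID1, a glutamate receptor of the delta class (0.48), cadpsb, which acts in the release of dense-core vesicles (0.54), and NME5 (0.55). GRID1 had 49.2 to 186 normalized counts in OPCs and 0 to 3.42 in OLs, where it had 2 raw counts in OL1, 4 in OL2 and 0 in the others. For olig2 the nearest were JMJD4 (0.31), EPB41L5, a protein of cell polarity (0.33), and si:dkey-105i19.5 (0.41).

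EPB41L5 had 189 to 400 normalized counts in OPCs and 30.7 to 99.0 in OLs. These features were far less abundant than olig1 and olig2. With a pseudocount of 10, 0 of the 3 features nearest to olig1 and 1 of the 3 nearest to olig2 were the same.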

How the data were processed

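According to the paper, full-length cDNA from FACsorted cells was amplified by PCR and sequenced from one end. The submitters' processing notes name GSNAP, featureCounts 1.5.2 and the build GRCz10. The authors deposited raw counts per Ensembl gene without normalization. Handling of multi-mapping reads and strand is not given in the sources used here. Poisson intervals cover counting error only, since the reads carry no stated molecular identifiers.

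Symbols came from a gene table that matched 25925 of 31388 identifiers. If a listed symbol was absent, its human-style form without the a or b suffix was used. Features passing filterByExpr (12292) were scaled by DESeq2's size factors and tested by the quasi-likelihood method of edgeR 4.0.16, with DESeq2 1.42.0 and limma 3.58.1 as alternatives in R 4.3.3, and Benjamini-Hochberg adjustment over all tested features. The SE is the log2 fold change divided by the square root of F. Python 3.11.15 served for ratios, profiles and exact permutation tests. The p-values set the difference between the populations against the spread between these libraries.

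On simulated counts for 12292 features of OPCs against OLs, with 200 changed 4-fold, edgeR called 156 of the changed features and 157 in all. As many were raised as lowered, and the counts followed edgeR's own dispersion trend, so this result need not hold for these data. Pairs of libraries of one population differed by far more than counting noise (chi-square per degree of freedom at least 28.6), so none was taken as a copy. Genes to be named were olig1, olig2, the 2 nearest tested features on each side and the 3 nearest profiles for each gene. The 4 most abundant members per kb of a list were also to be named, but not all were given with values. All other genes given were named after their values were seen. The genes, lists and tests were chosen with earlier results of these data known. Alternatives were other normalizations, filters and tests, a replicate block, thinning, other pseudocounts, a stricter threshold and leaving out each library. Sequences were not used here, and 1 listed gene is not reported here.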

Additional observations from a re-analysis of the deposited data

Results flagged for a closer look

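In each population of 5 libraries, a value was picked out when the gap between the highest or lowest library and the nearest other exceeded 0.71 of the range. Of 68 such groups examined, 12 had such a library. About 1 in 20, or 3.40 here, would be picked out from independent, normally distributed values. These were mostly normalized counts without logs, of genes read in the same libraries, so the excess cannot be read.

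For the 2 genes themselves there were 2. The olig2 level was 24255 normalized counts in OPC5, while the other OPC libraries had 13676 to 16193. The log2 ratio of olig1 to olig2 was -6.07 in OL2, while the other OL libraries had -7.75 to -7.44. OPC5 was also the library that stood apart for SOX10 (4605 normalized counts), zeb2a (7474), TCF12 (1735, others 847 to 1070), GRID1 (186, others 49.2 to 85.3) and DISP1 (39.1, others 5.60 to 12). These 5 genes and olig2 were all highest in OPC5.

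The remaining libraries that stood apart fell on different libraries. The level of tcf3b was 1808 in OPC4 (others 1178 to 1294) and, at the low end, 401 in OL2 (others 988 to 1193). A PTPRZ1 copy (ENSDARG00000051814) had 115 in OPC1 (others 10.1 to 26.7) and 62.0 in OL5 (others 0 to 11.9). The neighbour mxe had 182 in OL3 (others 0 to 37.6).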

How the results depend on the processing

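The log2 fold change of olig1 was 5.65 and lay between 5.44 and 6.36 over 18 alternatives, with a highest adjusted p of 0.000298 (edgeR, replicate block). Asking for 10 or more counts in each library left out olig1, which has 8 counts in OL3. That of olig2 was 2.2 and lay between 2.04 and 2.51 over 19 alternatives, with a highest adjusted p of 0.000794 (edgeR, replicate block). With each library left out the ranges were 5.44 to 6.36 and 2.04 to 2.40. The difference of the log2 ratio was 3.72, with 3.58 to 4.04 when a library was left out and 3.10 with a pseudocount of 10.

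The number of differing features was 1468, of which 1103 were higher in OPCs and 365 in OLs. It was 2336 without a filter (1964 higher in OPCs), 472 with at least 10 counts in every library (269 and 203) and 875 at an adjusted p under 0.01 (119 higher in OLs). Library size alone gave 1811 higher in OPCs and 118 in OLs, DESeq2's Wald test 602 higher in OLs and limma voom 658. With a library left out, 1283 to 1784 differed, 980 to 1311 were higher in OPCs and 249 to 477 in OLs. Features higher in OPCs made up 75.1% of the calls, 93.9% with library size alone, 84.1% without a filter and 57.0% with at least 10 counts in every library. Over tested features the log2 fold change had a median of 0.05, of 0.36 with library size alone and of 0.19 without a filter. The cause was not tested.

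Same-numbered libraries come from different lines, and the sources used here name no pairing, so the number was not taken as one. Their deviations from the population means had correlations of 0.0240 to 0.105. Those of libraries with different numbers were not computed, so these values cannot decide whether same-numbered libraries were prepared together. With the replicate block the log2 fold change was 5.89 for olig1 and 2.27 for olig2.

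Of the 42 other features named, features with no call changed sign in some settings. These were SOX10 at 0.18 and ID3 at 0.23 with library size alone, MYRF at 0.34 with library size alone, 0.019 with TMM and 0.0055 after thinning, and, with limma voom, ID3 at 0.062, zeb2a at -0.13 and mxe at 0.93. With each library left out, mxe ranged from -1.57 to 1.04, MYRF from -0.43 to 0.14, zeb2a from -0.10 to 0.38 and ID3 from -0.17 to 0.059. Of 240 counts of list members under alternatives, 219 were within 1.5 times the reported count. These include counts for the Olig family relatives and for motor neuron, endothelial and erythrocyte markers. Those lists had 0 tested features in the main test, so their counts say little about how far the results hold. With at least 10 counts in every library, 2 lineage factors, 2 E proteins and Id factors, 1 radial glia marker and 0 Hedgehog, OPC and neuron markers were called higher in OPCs. The other members of these lists that the main test called higher were left out untested by that filter. DESeq2 and limma voom, and an unadjusted p under 0.05 in edgeR, each gave 0 members lower in OPCs for the lists of E proteins and Id factors, Hedgehog genes, OPC markers and neuron markers. Without OPC1, an alternative chosen after seeing the data, 0 lineage factors in place of 1 were higher in OLs and 2 radial glia markers in place of 1.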
